A study of Arabidopsis thaliana with 12 samples.

Results

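Beta-glucosidases of glycoside hydrolase family 1 were examined in Arabidopsis roots held at pH 6 or pH 4.5. The genes are those with a symbol of BGLU and a number. The probe annotation gave 20 probe sets of the 22810 on the array to a single such gene, and each stood for a different gene. RefSeq (assembly TAIR10.1) lists 47 genes with a BGLU number as symbol or synonym. Of the other genes, 2 (PYK10 and ATA27) were named by the annotation under another symbol, 2 (BGLU21 and BGLU22) shared 1 probe set, and 23 were not analysed here.

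The series addresses the response of root transcripts to medium pH. Root RNA was taken from wild-type plants of Arabidopsis thaliana, accession Col-0, which the labels stage at 3.90 weeks. The plants had germinated on 0.7% agarose and were raised at 23 °C in hydroponics that was not sterile. The 4 groups of 3 samples were pH 6 for 8 h, pH 4.5 for 8 h, pH 6 for 1 h and pH 4.5 for 1 h, each sample on 1 Affymetrix ATH1 array. All groups carry the same labelled stock pH of 5.6, and none was taken ahead of the treatment, so it cannot be said which pH moved a gene. The labels do not say that replicates came from separate cultures, so the p-values reflect only the spread among these samples, and that spread may be technical.

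Beta-glucosidases of this family remove a glucose from a glucoside and release the molecule that the glucose had kept inactive or soluble. Their known substrates in plants include coumarin glucosides, glucosinolates, flavonol glycosides, the glucosides of lignin precursors and the glucose ester of abscisic acid. In Arabidopsis roots the best known member is PYK10 (BGLU23), which is stored in endoplasmic reticulum bodies and meets its substrates when cells are damaged.

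Signals are on a linear scale, each array having been scaled to a trimmed mean of 100. Array medians lay between 38.2 and 40.2. Of the 20 probe sets, 8 had a mean signal at or above 11.1, the 30th percentile of all probe sets, and were tested: BGLU15, BGLU16, BGLU25, BGLU40, BGLU42, BGLU44, BGLU46 and BGLU47. This is 40% of the beta-glucosidases, against 70.0% of all 22746 probe sets that are not array controls. The other 12 lay below this level and are described with their values only. Log2 differences are on the scale of log2(signal + 3.92), and tests are limma's moderated tests with Benjamini-Hochberg adjustment over all 15922 probe sets tested. With 3 arrays per group the precision is limited: log2 pH differences at 8 h had a median standard error of 0.14.

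The root label could not be checked against root markers, since 0 of the 14 fixed root markers had a named probe set. PYK10 itself, a root-expressed gene, had mean signals from 2944 to 4061 in the 4 groups. Of 12 leaf markers, 3 were named (RCA, LHCB4.1 and PSAN), and their summed signal was 67.9 to 97.6 at pH 6 and 8 h, 59.7 to 75.7 at pH 4.5 and 8 h, 156 to 185 at pH 6 and 1 h and 116 to 181 at pH 4.5 and 1 h. In these bulk samples, fewer cells of a type and less RNA per cell cannot be told apart.

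After 8 h, BGLU25 was much lower at pH 6 than at pH 4.5, BGLU46 was lower by a smaller step, and 6 of the 8 tested beta-glucosidases did not pass the test. BGLU25 (AT3G03640) belongs to the same subfamily as PYK10. BGLU46 (AT1G61820) hydrolyses the glucosides of lignin precursors. Of the 8 genes, 2 were lower and 0 higher by limma, and the same counts were found at an unadjusted p of 0.05. Over all probe sets tested, 27.9% were called in either direction and 13.3% were called lower, so the share of 25.0% among the beta-glucosidases is near the background for calls in either direction. Their median log2 difference was -0.08, and that of all probe sets was 0.03.

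BGLU25 had signals of 217, 204 and 191 on the arrays of pH 6 and 8 h, against 1134, 1052 and 802 on those of pH 4.5 and 8 h. Each array at pH 4.5 stood far above each array at pH 6, and the groups did not overlap. The means were 204 ± 13.0 and 996 ± 173 (SD, n = 3 each). The log2 difference was -2.25 ± 0.11 (SE, limma adjusted p = 3.56e-11), which is 4.76-fold lower at pH 6. In size this difference held rank 174 among the 15922 probe sets tested. The call held under all 22 alternative settings tried, with log2 differences between -2.40 and -2.15. GAPDH 3' to 5' signal ratios, a sign of RNA quality, were 1.10 to 1.49 at pH 6 and 1.39 to 1.50 at pH 4.5 in the 8 h groups, and actin ratios were 14.4 to 19.9 and 15.3 to 20.8. Both ratios overlapped between these groups. On every array the actin ratio was far above the GAPDH ratio. The part of RNA quality in the 8 h difference of BGLU25 was not tested.

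**Figure D1:**
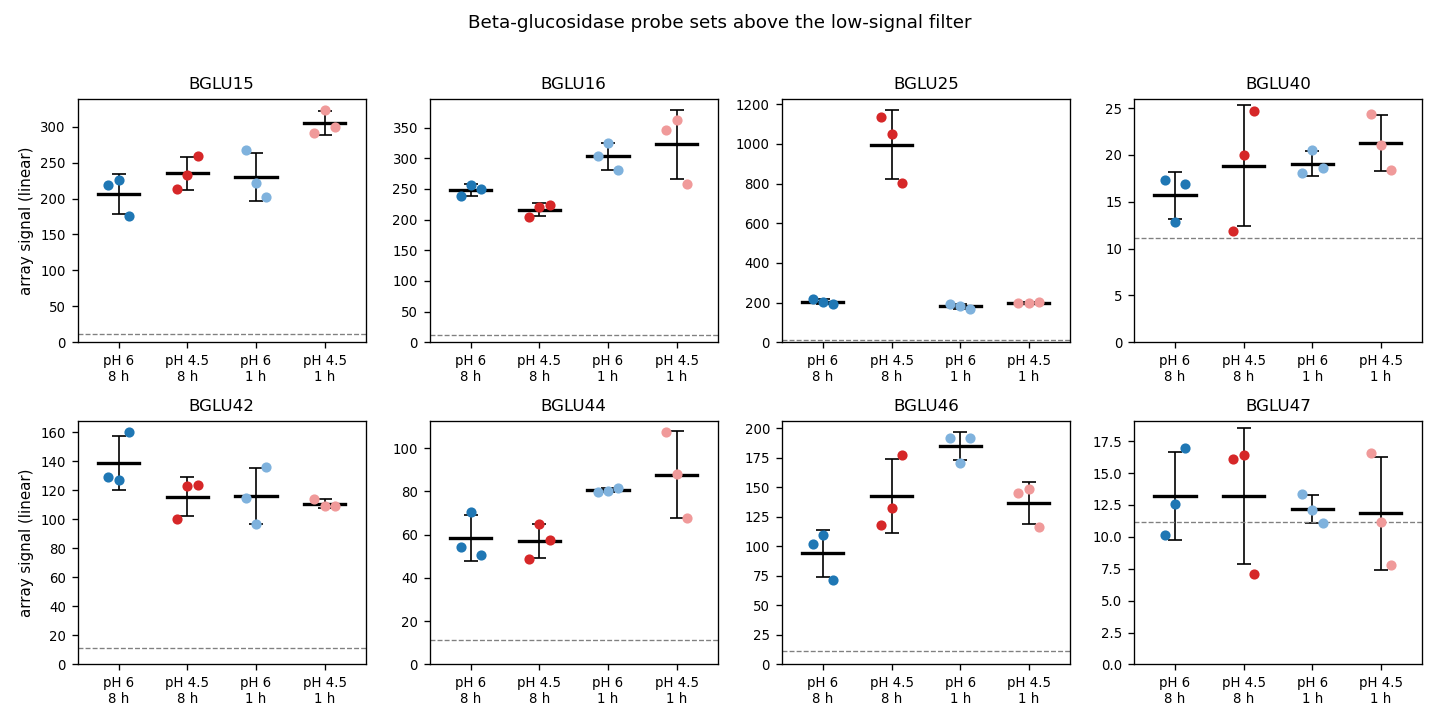
Signals (linear axis from 0) of the 8 tested beta-glucosidases on each array, by pH and time, with n = 3 per group; black bars are means and error bars 1 SD, and the dashed line is the low-signal level of 11.1. BGLU25 stands at 802 to 1134 at pH 4.5 and 8 h and at 169 to 217 in the other 3 groups.

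BGLU46 had signals of 102, 109 and 71.5 at pH 6 and 8 h, against 118, 132.5 and 178 at pH 4.5 and 8 h. The arrays at pH 6 all lay below those at pH 4.5, and the nearest values of the groups were 109 and 118. The means were 94.2 ± 20.01 and 143 ± 31.1 (SD, n = 3 each), with a log2 difference of -0.58 ± 0.16 (SE, limma adjusted p = 0.00966), which is 1.50-fold lower at pH 6. Replicate 3 of each pH had the most extreme value of its group, and the call ended without replicate 3 of pH 4.5 (log2 difference -0.42, limma adjusted p = 0.0685). It also ended without replicate 3 of pH 6 (log2 difference -0.40, limma adjusted p = 0.0611).

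The remaining 6 genes did not pass at 8 h. BGLU42 (AT5G36890), which acts on coumarin glucosides and is needed for systemic resistance induced by root bacteria, had 127 to 160.3 at pH 6 and 100.3 to 124 at pH 4.5. Its arrays did not overlap, but the log2 difference of 0.25 (95% interval -0.02 to 0.53, limma adjusted p = 0.160) did not pass. BGLU16 (AT3G60130) had 239 to 257 at pH 6 and 205 to 223 at pH 4.5, also without overlap, with a log2 difference of 0.20 (95% interval -0.04 to 0.43). BGLU15 (AT2G44450), which hydrolyses a flavonol glycoside, had a log2 difference of -0.19 (95% interval -0.44 to 0.06).

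BGLU44 (AT3G18080), which acts on beta-mannosides, had a log2 difference of 0.03 at 8 h (95% interval -0.30 to 0.36). Its means were 58.4 ± 10.6 at pH 6 and 57.0 ± 7.89 at pH 4.5 (SD, n = 3 each). BGLU40 (AT1G26560) and BGLU47 (AT4G21760), a relative of BGLU45 and BGLU46, were close to the low-signal level, with log2 differences of -0.18 (95% interval -0.65 to 0.28) and 0.04 (95% interval -0.56 to 0.64). The first interval includes the difference of -0.58 seen in BGLU46, and the second ends just short of it.

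**Figure D2:**
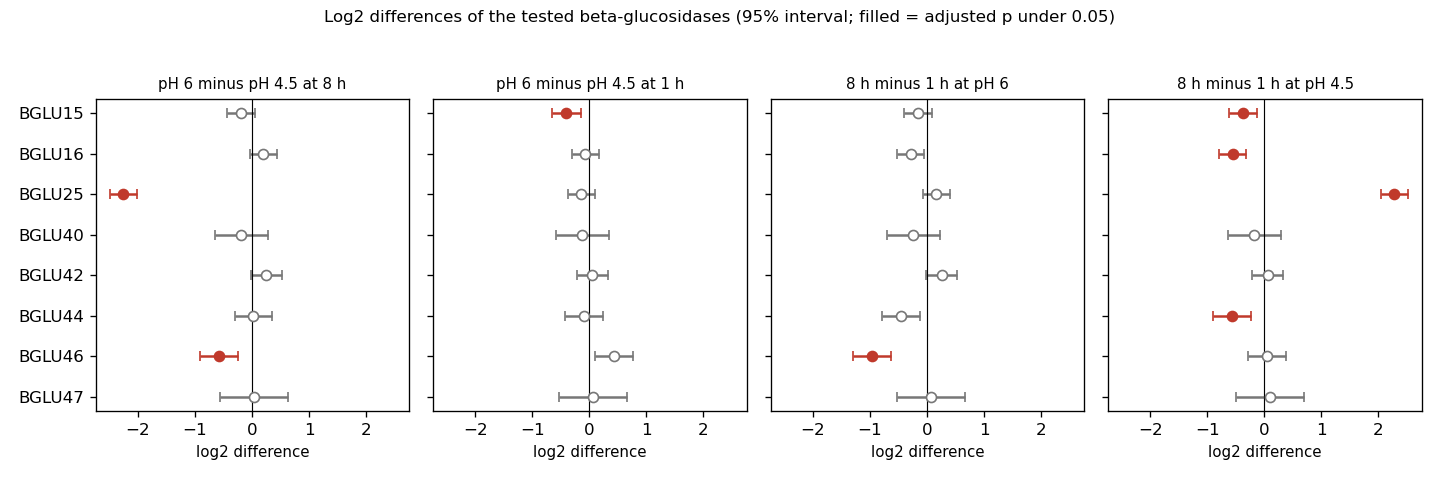
Log2 differences (horizontal axis) of the 8 tested beta-glucosidases in the 2 pH comparisons and the 2 time comparisons, with 95% intervals from limma (n = 3 arrays per group); filled red points passed an adjusted p of 0.05. BGLU25 is at -2.25 for pH at 8 h and at 2.28 for time at pH 4.5, and every other value shown lies between -0.96 and 0.43.

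After 1 h, BGLU15 was lower at pH 6 and the other 7 tested genes did not pass. This is 1 of 8 beta-glucosidases (12.5%), against 10.8% of all probe sets tested, 5.26% of them called higher and 5.55% lower. At an unadjusted p of 0.05, 1 was lower and 1, BGLU46, was higher. The median log2 difference was -0.08 for the 8 genes and 0.05 for all probe sets.

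BGLU15 had signals of 267, 222 and 202 at pH 6 and 1 h, against 291, 323 and 299.9 at pH 4.5 and 1 h. The groups did not overlap. The means were 230.2 ± 33.6 and 305 ± 16.8 (SD, n = 3 each), with a log2 difference of -0.41 ± 0.12 (SE, limma adjusted p = 0.0342), or 1.33-fold lower at pH 6. With each array left out in turn the log2 difference lay between -0.52 and -0.32, but the call was close to the threshold. The call ended without replicate 1, 2 or 3 of pH 4.5 (limma adjusted p = 0.0623, 0.124 and 0.0662). It ended as well without replicate 2 or 3 of pH 6 (limma adjusted p = 0.0918 and 0.157). It also ended without the low-signal filter (adjusted p = 0.0556) and without the intensity trend (adjusted p = 0.0794).

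The 1 h arrays also differed in other measures. Median signals were 39.9 to 40.2 at pH 6 and 38.2 to 38.3 at pH 4.5, and actin 3' to 5' ratios were 10.00 to 17.0 and 18.2 to 21.1, without overlap in either measure. GAPDH ratios were 0.928 to 1.263 at pH 6 and 1.249 to 1.466 at pH 4.5, and these overlapped slightly. Of the probe sets called at 1 h, 48.7% were higher at pH 6, and the share was 33.8% after centring the arrays on their medians. Their part in the 1 h difference of BGLU15 was not tested. BGLU15 was lower at pH 6 under both other scalings, by median and by quantile.

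BGLU25 at 1 h had 193, 182 and 169 at pH 6, against 199.8, 196 and 204 at pH 4.5. The groups did not overlap, but they lay close together. The log2 difference of -0.14 (95% interval -0.37 to 0.10, limma adjusted p = 0.503) did not pass. The interval leaves out the 8 h value of -2.25.

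BGLU46 at 1 h had 192, 171 and 192 at pH 6, against 145, 148 and 116 at pH 4.5. All arrays at pH 6 lay above those at pH 4.5, the opposite order to that at 8 h. The log2 difference of 0.43 (95% interval 0.10 to 0.76) did not pass after adjustment (limma adjusted p = 0.0913). It did pass when the 1 h arrays were fitted alone (adjusted p = 0.0330) and without replicate 3 of pH 6 at 8 h (adjusted p = 0.0449).

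**Figure D3:**
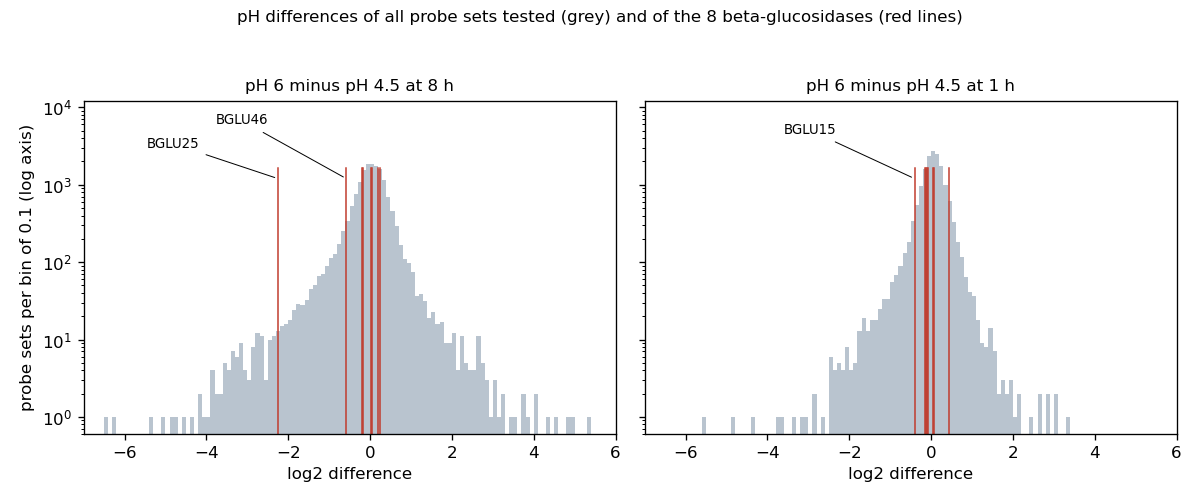
Histograms of the log2 pH difference over all 15922 probe sets tested, at 8 h (left) and 1 h (right), in bins of 0.1 with a log count axis; red lines mark the 8 tested beta-glucosidases and labels name those that passed an adjusted p of 0.05. At 8 h BGLU25 lies in the left tail at -2.25 and BGLU46 at -0.58, and at 1 h BGLU15 lies at -0.41.

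The change of the pH effect with time was tested directly and passed in BGLU25 and BGLU46, that is in 25.0% of the 8 genes, against 15.6% of all probe sets tested (7.19% higher and 8.36% lower). Over all probe sets called, 46.2% were higher, and 56.5% were after centring the arrays on their medians. For BGLU25 the pH effect at 8 h minus that at 1 h was -2.11 ± 0.16 on the log2 scale (SE, limma adjusted p = 2.65e-08). For BGLU46 it was -1.01 ± 0.22 (adjusted p = 0.00369), with the effect positive at 1 h and negative at 8 h. Both calls held under all 21 alternatives. The other 6 differences lay between -0.06 and 0.27, and did not pass.

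Between 1 h and 8 h at pH 4.5, BGLU25 rose and BGLU16, BGLU44 and BGLU15 fell. This is 4 of 8 genes (50.0%), against 23.8% of all probe sets tested; 1 was higher and 3 were lower, where 12.7% and 11.1% of all probe sets were. BGLU25 averaged 996 ± 173 at 8 h and 200.1 ± 4.11 at 1 h (SD, n = 3 each), a log2 difference of 2.28 ± 0.11 (SE, limma adjusted p = 5.47e-11), which held rank 97 in size among all probe sets tested.

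BGLU16 at pH 4.5 had 205, 221 and 223 at 8 h, against 346, 363 and 259 at 1 h. The 8 h arrays all lay below the 1 h arrays, with a log2 difference of -0.55 ± 0.11 (limma adjusted p = 0.00121). BGLU44 at pH 4.5 had 48.9, 64.7 and 57.5 at 8 h, against 108, 87.9 and 67.7 at 1 h. The groups stood apart by a small gap, and the log2 difference was -0.57 ± 0.16 (adjusted p = 0.0121). BGLU15 averaged 235 ± 23.1 at 8 h and 305 ± 16.8 at 1 h, with a log2 difference of -0.37 ± 0.12 (adjusted p = 0.0288). The call of BGLU44 ended without replicate 1 of pH 4.5 at 1 h (adjusted p = 0.0855) or at 8 h (adjusted p = 0.0678). That of BGLU15 ended without replicate 2 or 3 at 1 h (adjusted p = 0.104 and 0.0563), without replicate 1 or 2 at 8 h (adjusted p = 0.125 and 0.0794) and without the intensity trend (adjusted p = 0.0651).

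At pH 6, only BGLU46 passed between 1 h and 8 h among the 8 genes (12.5%, against 19.5% of all probe sets tested, 8.91% higher and 10.6% lower). It averaged 94.2 ± 20.01 at 8 h and 185 ± 12.0 at 1 h (SD, n = 3 each), with no overlap, a log2 difference of -0.96 ± 0.16 (SE, limma adjusted p = 0.000271). At pH 4.5 the same gene had a log2 difference of 0.05 (95% interval -0.28 to 0.38). BGLU25, which rose at pH 4.5, had 0.16 at pH 6 (95% interval -0.07 to 0.40, adjusted p = 0.335). BGLU44 was at -0.45 (adjusted p = 0.0534) and BGLU16 at -0.28 (adjusted p = 0.0872), each with all 8 h arrays below the 1 h arrays. BGLU44 passed without replicate 1 or 3 of pH 4.5 at 1 h (limma adjusted p = 0.0400 and 0.0312) and without replicate 2 of pH 6 at 8 h (limma adjusted p = 0.0253). BGLU16 passed without replicate 3 of pH 4.5 at 1 h (limma adjusted p = 0.0323). BGLU44 also passed with a filter at the 50th percentile (limma adjusted p = 0.0479) and with only the arrays of the groups compared (limma adjusted p = 0.0443).

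The leaf markers moved with time as well. Their summed signal of 59.7 to 97.6 at 8 h lay below that of 116 to 185 at 1 h on every array. All 3 markers were called lower at 8 h than at 1 h at each pH. Of all probe sets tested, 11.1% were lower with time at pH 4.5 and 10.6% at pH 6. The 3 markers are too few to set against these shares. For pH at 8 h, 1 of the 3 passed, PSAN, which was lower at pH 6. It had 6.11 ± 7.76 at pH 6 against 14.1 ± 2.87 at pH 4.5 (SD, n = 3 each). The mean at pH 6 was under the low-signal level of 11.1 and smaller than its SD. Over all probe sets tested 13.3% were lower, and the median of the 3 was 0.37, beside 0.03 for all. The hour of sampling is not given in the labels. The part of either in the time differences of the beta-glucosidases was not tested.

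The 12 genes below the low-signal level had array signals between 0.177 and 22.1. They include BGLU45, which also acts on glucosides of lignin precursors, BGLU28, whose transcript is known to rise in sulfur-limited plants, BGLU33, a vacuolar enzyme that releases abscisic acid from its glucose ester, and BGLU36, of the myrosinase group. BGLU45 ranged from 4.27 to 15.3 over the 12 arrays, BGLU28 from 0.518 to 8.92, BGLU33 from 2.39 to 7.75 and BGLU36 from 0.718 to 11.9. BGLU19 (0.359 to 4.35), BGLU24 (2.55 to 15.1), BGLU29 (0.177 to 6.44) and BGLU41 (2.74 to 12.4) overlapped between the groups in all 4 comparisons, as did BGLU45, BGLU28 and BGLU33. BGLU43 (0.514 to 6.14) was lower at pH 6 on all 1 h arrays, and BGLU36 was higher there. With BGLU27, described next, this made 2 of 12 lower at 1 h (3.58% of all probe sets below the level) and 1 of 12 higher (8.19%). Between 1 h and 8 h, 2 of 12 were higher on all 8 h arrays at pH 4.5 (BGLU27 and BGLU31, against 6.18%) and 0 lower (6.26%), and at pH 6 0 were higher (3.78%) and 1 lower (BGLU32, 6.87%).

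**Figure D4:**
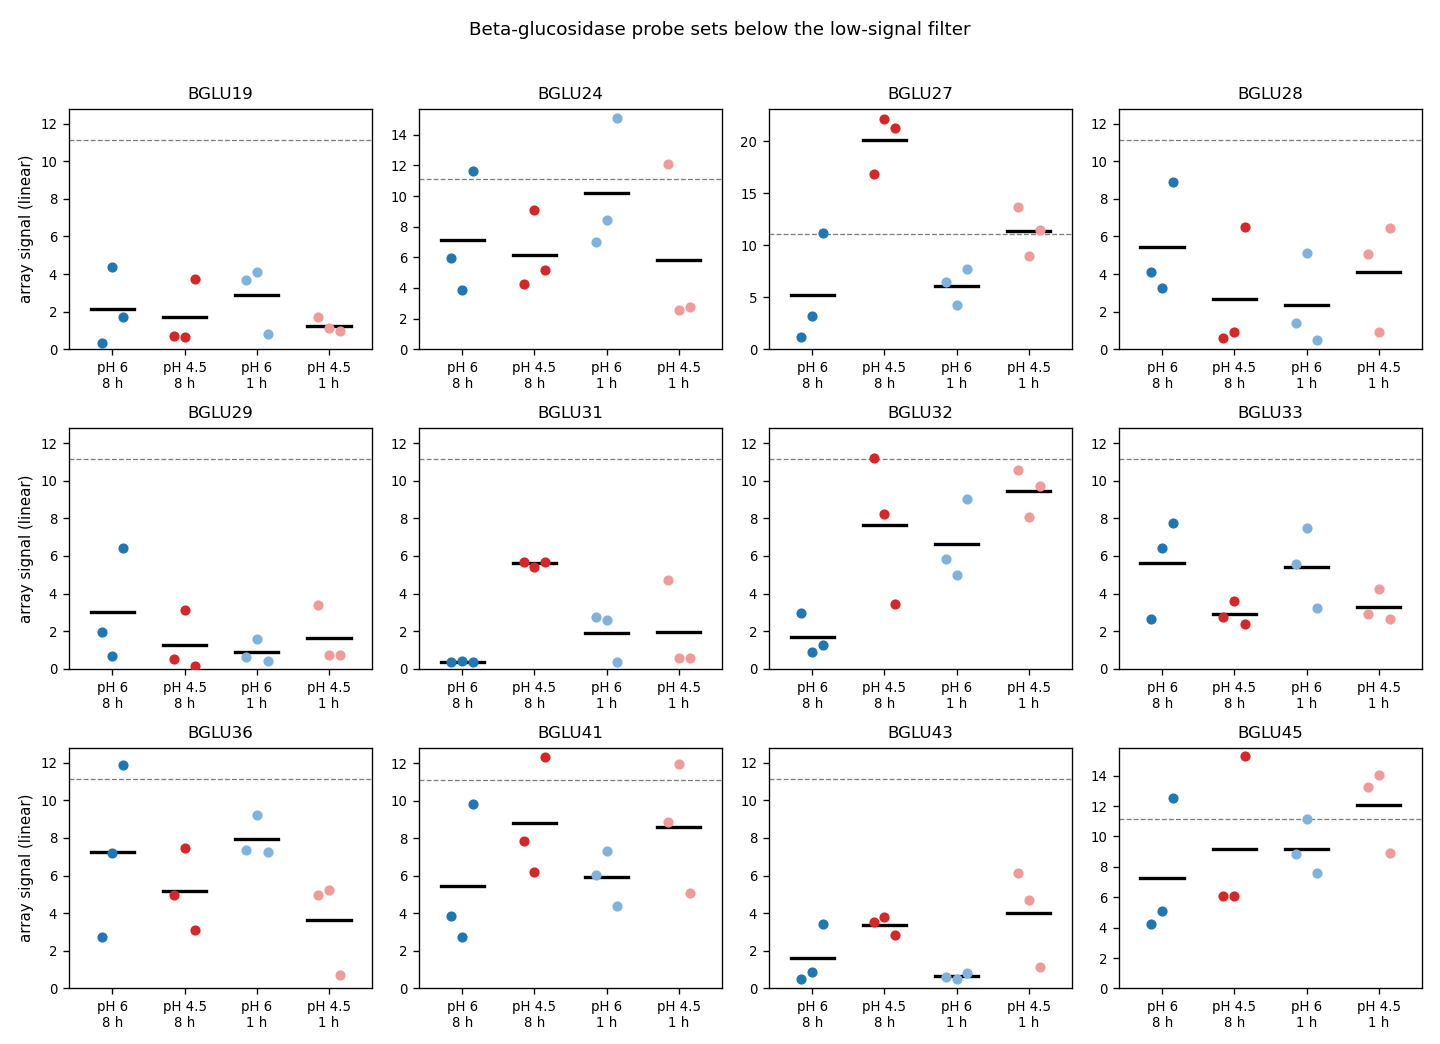
Signals (linear axis from 0) on each array of the 12 beta-glucosidases below the low-signal level of 11.1 (dashed line), by pH and time; black bars are group means (n = 3). In BGLU27, BGLU31 and BGLU32 all arrays of pH 6 and 8 h lie below those of pH 4.5 and 8 h.

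In 3 of these 12 genes, BGLU27, BGLU31 and BGLU32, all arrays of pH 6 and 8 h lay below all arrays of pH 4.5 and 8 h. This is 25.0%, against 5.55% of all 6824 probe sets below the level, and 0 of the 12 showed the opposite order, against 6.65%. BGLU27 (AT3G60120) had 1.18, 3.21 and 11.2 at pH 6 and 8 h, against 16.9, 22.1 and 21.3 at pH 4.5 and 8 h. The 3 arrays of pH 4.5 at 8 h were the highest of the 12. At 1 h it had 6.49, 4.22 and 7.68 at pH 6, against 13.7, 8.99 and 11.5 at pH 4.5, again without overlap.

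BGLU31 (AT5G24540) had 0.382, 0.418 and 0.346 at pH 6 and 8 h, against 5.71, 5.44 and 5.66 at pH 4.5 and 8 h. At 1 h it had 2.75, 2.61 and 0.369 at pH 6, against 4.74, 0.591 and 0.569 at pH 4.5. Its values agreed closely within the 8 h groups but spread widely within the 1 h groups, and all are under the low-signal level. BGLU32 (AT5G24550) had 2.94, 0.911 and 1.27 at pH 6 and 8 h, against 11.2, 8.21 and 3.44 at pH 4.5 and 8 h. The nearest values of these groups, 2.94 and 3.44, were close.

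When the low-signal filter was left out, these 3 genes passed at 8 h, with log2 differences of -1.55 ± 0.33 (SE, limma adjusted p = 0.00413) for BGLU27, -1.15 ± 0.27 (adjusted p = 0.00823) for BGLU31 and -0.99 ± 0.28 (adjusted p = 0.0237) for BGLU32. In that fit 5 of 20 beta-glucosidases were lower and 0 higher, also at an unadjusted p of 0.05, a share of 25.0% against 18.1% of all probe sets called and 8.97% called lower. Apart from BGLU27 at pH 4.5, with a mean of 20.1, all group means of these 3 genes at 8 h were under the low-signal level, so the log2 differences are not read as fold changes of the transcripts.

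Of the 20 genes, 11 lie next to another of the 20 in the RefSeq gene order: BGLU15, BGLU28 and BGLU29 in 1 row, BGLU27 with BGLU16, BGLU31 with BGLU32, BGLU43 with BGLU44, and BGLU45 with BGLU46. Neighbours differed in whether they passed the filter. In each of these sets except BGLU31 with BGLU32, where neither passed, 1 gene passed: BGLU15, BGLU16, BGLU44 and BGLU46. BGLU31 and BGLU32 had the same order of groups at 8 h. BGLU16 had all arrays of pH 6 and 8 h above those of pH 4.5, and its neighbour BGLU27 had all below. The difference of BGLU16 did not pass the test (limma adjusted p = 0.216), and BGLU27 was below the low-signal level. How far near-identical neighbours share hybridisation on this array was not tested.

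BGLU21 and BGLU22, root beta-glucosidases that hydrolyse the coumarin glucoside scopolin, share a probe set that is not counted above. It had 2418, 2803 and 2019 at pH 6 and 8 h, against 1658, 1712 and 2065 at pH 4.5 and 8 h. The groups overlapped slightly, through replicate 3 of each pH. The log2 difference was 0.41 ± 0.13 (SE, limma adjusted p = 0.0263), higher at pH 6, which is the opposite sign to BGLU25. At 1 h it was -0.36 ± 0.13 (adjusted p = 0.0932), and the change of the pH effect with time was 0.76 ± 0.19 (adjusted p = 0.00768). Between 1 h and 8 h the signal rose at pH 6 (0.48 ± 0.13, limma adjusted p = 0.0148). At pH 4.5 its time difference of -0.29 did not pass (limma adjusted p = 0.131). Whether the calls of this shared probe set hold under the alternative settings was not tested. PYK10 averaged 4061 ± 756 at pH 6 and 3995 ± 338 at pH 4.5 after 8 h (SD, n = 3 each), a log2 difference of 0.01 (adjusted p = 0.969). With time PYK10 rose at pH 6 (0.45, limma adjusted p = 0.0162) and did not pass at pH 4.5 (0.29, limma adjusted p = 0.111). Of all probe sets tested, 8.91% were higher with time at pH 6.

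Genes that work with these enzymes were followed by lists of loci. Of 15 genes of the endoplasmic reticulum body and the PYK10 complex, 6 had a named probe set and 5 were tested. At 8 h, 0 were higher and 1, the jacalin-related lectin gene JAL33, was lower at pH 6, with 684 ± 50.4 against 855 ± 30.4 at pH 4.5 (log2 difference -0.32, limma adjusted p = 0.0340). This is 20% of the 5 tested, beside 27.9% of all probe sets called for pH at 8 h, and their median was -0.09, beside 0.03 for all. NAI2, which encodes a protein needed to form these bodies, did not pass for pH at 8 h (-0.09, adjusted p = 0.494) and rose with time at both pH values (log2 differences of 0.50 at pH 4.5 and 0.47 at pH 6). At 1 h none of the 5 passed for pH.

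Of 10 loci listed for coumarin synthesis and iron uptake, 3 had a named probe set and were tested. At 8 h 1 was higher and 2 were lower at pH 6 (median -0.34). Of all probe sets, 14.6% were higher and 13.3% lower, and 3 loci are too few to set against these shares. F6'H1 (AT3G13610), which makes the precursor of the coumarin scopoletin, had 1437 ± 55.3 at pH 6 and 2357 ± 249 at pH 4.5 (SD, n = 3 each), a log2 difference of -0.71 (limma adjusted p = 0.000100). AT1G28680 was at -0.34 (adjusted p = 0.0268) and AT3G12900 at 1.44 (adjusted p = 0.0451), the second with a mean of 3.08 at pH 4.5 that is under the low-signal level. At 1 h none of the 3 passed.

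Of 25 loci listed for glucosinolates, only UGT74B1 had a named probe set. This glucosyltransferase of glucosinolate synthesis was lower at pH 6 after 8 h, at 539.6 ± 50.1 against 804 ± 107 at pH 4.5 (log2 difference -0.57, limma adjusted p = 0.000212). Of all probe sets tested, 13.3% were lower there, and 1 gene does not stand for its list. The 3 genes of the monolignol list with a named probe set were UGT72E1, UGT72E2 and UGT72E3. They add glucose to lignin precursors, the reverse of what BGLU45 and BGLU46 do. None of them passed for pH at either time. Their median log2 difference at 8 h was 0.01, beside 0.03 for all probe sets, while BGLU46 was lower at pH 6. Between 1 h and 8 h UGT72E2 and UGT72E3 rose at both pH values, with log2 differences of 0.71 and 0.60 at pH 6. Of all probe sets tested, 12.7% were higher with time at pH 4.5 and 8.91% at pH 6.

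Of 8 abscisic acid loci, 1 was tested, UGT71C5, which makes the glucose ester of abscisic acid. It was lower at pH 6 after 8 h, with 132 ± 20.04 against 183 ± 6.31 at pH 4.5 (log2 difference -0.47, limma adjusted p = 0.00354). Of all probe sets tested, 13.3% were lower there, and 1 gene does not stand for its list. Of 8 loci listed for beta-glucosidases and beta-xylosidases of another glycoside hydrolase family, 3 were tested. AT5G20950 was higher at pH 6 at both times, with 691 ± 40.5 against 221 ± 19.1 after 8 h (log2 difference 1.63, adjusted p = 1.27e-09) and 687 ± 93.9 against 488 ± 50.1 after 1 h (0.49, adjusted p = 0.00511). Its 8 h difference had the opposite sign to that of BGLU25. The other 2 did not pass for pH, and the list's median at 8 h was 0.25, beside 0.03 for all probe sets. Of all probe sets tested, 14.6% were higher at pH 6 after 8 h and 5.26% after 1 h. The 3 loci are too few to set against these shares.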

How the data were processed

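The authors deposited linear signal intensities from Affymetrix software (GCOS, MAS5), per the submitters' processing notes; versions are not given there. Each array had a mean of 100.0 without its highest and lowest 2% of signals. Gene symbols came from the platform annotation and locus codes from RefSeq (TAIR10.1), matched for 20 of 20 beta-glucosidases. The value files name no genome build, so no coordinates are given. Protein and promoter sequences were not analysed here.

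A constant of 3.92, which is 10% of the median signal, was added before log2. The fit left out 64 array controls and all probe sets whose mean signal fell short of the 30th percentile. A group-means model was fitted over the 12 arrays in R 4.3.3 with limma 3.58.1 (lmFit, then eBayes using trend; residual degrees of freedom 8), without a replicate block. P-values are two-sided, adjusted over 15922 probe sets, with a threshold of 0.05. The procedure was tested on simulated data. Tables and figures were made in Python 3.11.15 (matplotlib 3.10.9, pandas 2.3.3, numpy 2.4.6).

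Every beta-glucosidase is accounted for, with each array's values for those called for pH. Of each list, up to 4 members called for pH are named, by size, and other genes of the lists were named after their values were seen. The beta-glucosidases and the lists were chosen with earlier results of these data known. Alternatives were the constant, the filter, the scaling, the trend, the arrays fitted, each array left out and a replicate block. The replicate numbers were not taken to pair the samples.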

Additional observations from a re-analysis of the deposited data

Results flagged for a closer look

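The pH effect differed between the times in 2 of the 8 tested beta-glucosidases, by the direct test of that difference in limma. In BGLU25 the pH effect at 8 h minus that at 1 h was -2.113 on the log2 scale, with all 3 arrays of pH 4.5 at 8 h above the other 9. In BGLU46 it was -1.014, with all arrays of pH 6 below those of pH 4.5 at 8 h and above them at 1 h. Groups of 3 arrays are too small to tell whether a single array is an outlier. With each array left out in turn, the value lay between -2.26 and -2.01 for BGLU25. For BGLU46 it lay between -1.14 and -0.84.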

How the results depend on the processing

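With limma's fit, BGLU25 kept its calls for pH at 8 h, for time at pH 4.5 and for the change of the pH effect under all alternatives run, and BGLU46 those for time at pH 6 and for the change of the pH effect. Counts of called beta-glucosidases changed as follows; 8 were tested, but 20 without the filter and 6 with a filter at the 50th percentile. For pH at 1 h the count of 1 became 0 without the filter (1 higher and 2 lower at an unadjusted p of 0.05), 0 without the intensity trend (1 higher and 1 lower unadjusted) and 2 with only the groups compared. For pH at 8 h the count of 2 became 5 without the filter. For time at pH 6 the count of 1 became 2 with a filter at the 50th percentile, 2 with only the groups compared and 2 with the replicate block, each adding BGLU44 (adjusted p = 0.0450 with the block); the block changed no other count of calls. For time at pH 4.5 the count of 4 became 3 without the intensity trend, BGLU15 being lost. Over the deviations from the group means, 5 of 18 correlations between same-numbered arrays were over 0.1 (range -0.09 to 0.17), and 4 of these 5 were between arrays of replicate 2; 2 of 36 were between arrays of different numbers (range -0.19 to 0.20). Not every array correlated best with its own number. Leaving out each array in turn gave 0 to 2 calls for pH at 1 h, 1 to 2 for pH at 8 h, 2 to 3 for the change of the pH effect, 2 to 4 for time at pH 4.5 and 1 to 3 for time at pH 6; where the change of the pH effect had 3, BGLU16 was added without replicate 3 of pH 4.5 at 1 h (0.42, adjusted p = 0.0443). No called direction reversed. A filter on the mean log2 value, chosen after seeing the data, gave the same 5 counts. The causes of these changes were not tested. Signals near the low-signal level limit what can be said of BGLU40, BGLU47 and the 12 genes below it.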
